A study of Mus musculus with 4 samples.

Results

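Elastic fibres give the lung its recoil. Each fibre has a core of elastin, which is secreted as the soluble monomer tropoelastin, and a mantle of fibrillin microfibrils on which tropoelastin is laid down. Fibulins and a latent TGF-beta binding protein bring tropoelastin and the cross-linking enzymes together, and lysyl oxidases join lysine side chains of neighbouring chains into a stable polymer. In the developing lung the fibres are laid down by mesenchymal cells, namely myofibroblasts and the smooth muscle of airways and vessels, and by mesothelium.

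The genes described here are 10 components of this pathway, chosen by name. They comprise *Eln* for the core, *Fbn1*, *Fbn2*, *Mfap4* and *Emilin1* for microfibrils and their interface with elastin, *Ltbp4*, *Fbln5* and *Efemp2* for assembly, and *Lox* and *Loxl1* for cross-linking. All 10 names matched a single gene each among the 45706 genes of the count table, and all 10 passed the filter on low counts (a mean of 5 or more over the lungs), as 18763 genes did. Lungs (left lobes) of C57BL/6 embryos at embryonic day 17 were compared between 2 wild-type embryos and 2 embryos homozygous for the L458R missense allele of *Myh10* (Myh10L458R/L458R). *Myh10* encodes the heavy chain of non-muscle myosin II-B, the allele came from a chemical mutagenesis screen, it is present in every cell of the embryo, and no sample received a treatment. The labels give neither litter nor sex, and whole-lobe RNA was sequenced, so fewer cells of a type and less RNA per cell cannot be told apart.

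The lungs had between 19116971 and 32055306 reads counted on genes. Levels are given as CPM, read counts scaled for library size with TMM factors. Differences are log2 fold changes of Myh10L458R/L458R over wild-type, tested with edgeR (quasi-likelihood), and each p was adjusted by the Benjamini-Hochberg method for all 18763 genes. *Myh10* itself, in which the allele replaces a base and removes no sequence, was at 505 and 504 CPM in wild-type and 539.5 and 513 CPM in Myh10L458R/L458R lungs, so its count does not check the labels. *Xist*, which is transcribed in female cells, was at 3916 CPM in wild-type lung 1 and 4457 CPM in Myh10L458R/L458R lung 2 and at 1.84 and 4.10 CPM in the other lungs, while the Y-linked *Ddx3y* showed the opposite pattern. Each genotype thus held a lung of either kind.

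The repeats of the elastin gene are shown first because they set *Eln* apart from the other members. *Eln* (ENSMUSG00000029675) lies on the minus strand of chromosome 5 from 134702593 to 134747323 on GRCm38, and its longest coding transcript (ENSMUST00000015138) has 37 exons and 2580 coding bases. Elastin exons code in turn for water-repelling stretches rich in valine, proline and glycine, which give the recoil, and for alanine-rich stretches with lysines, which lysyl oxidases join. The exon with the most in-frame codon triples for valine, proline and glycine (GTNCCNGGN, capitals) was exon 27 at chr5:134711062-134711220, and exon 18 at chr5:134718989-134719048 is the first of 3 exons that tied for the most in-frame triples for alanine, alanine and lysine (GCNGCNAAA or GCNGCNAAG, capitals). Both are wholly coding and are given 5′ to 3′ on the coding strand, from the GENCODE M21 transcript.
*Eln* exon 27: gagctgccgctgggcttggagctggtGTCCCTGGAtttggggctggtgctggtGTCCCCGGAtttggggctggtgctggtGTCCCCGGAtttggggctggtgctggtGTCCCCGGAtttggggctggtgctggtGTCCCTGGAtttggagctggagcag
*Eln* exon 18: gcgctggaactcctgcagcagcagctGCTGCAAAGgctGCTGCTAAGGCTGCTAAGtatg

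Exon 27 holds 5 of the first kind of triple and exon 18 holds 3 of the second kind, of which 2 are adjacent. Over the whole coding sequence, *Eln* had 23 in-frame triples of the first kind, of which 20 lay within 8 exons and 3 spanned exon junctions. It had 21 of the second, all within 10 exons, and 1 exon held both kinds. Of the other members, *Fbn2* had 3 and *Fbln5* 1 triple of the first kind, and none of the 9 had the second. Searched in every frame of the coding strand in the longest coding transcript of 21500 genes, the first motif occurred at least once in 57.6% and the second in 30.3%. As many occurrences as in *Eln* were found in 3 transcripts for the first motif and in 2 for the second, *Eln* included. The repeats bear on counting, because reads that aligned to several regions were left out before deposition. The *Eln* transcript holds 3779 windows as long as a full read (75 bases), of which 12 occurred more than once within it. A further 80 windows (2.12%) lay in *Gm30003*, a gene on the opposite strand that overlaps 267 bases of *Eln* exons and had 19 reads in all lungs together, against 206508 for *Eln*.

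*Eln* differed most between the genotypes among the 10 genes. It was counted at 2321 and 2439 CPM in wild-type lungs and at 1763 and 1798 CPM in Myh10L458R/L458R lungs. Both Myh10L458R/L458R lungs lay below both wild-type lungs, and the gap between genotypes exceeded the spread within either. The fold of 0.748 (95% confidence interval 0.639 to 0.876), a log2 fold change of -0.42 with a standard error of 0.10, nevertheless missed the threshold of 0.05 after adjustment by edgeR (adjusted p = 0.072). Between the lungs with high *Xist* the log2 difference was -0.37 and between the lungs with low *Xist* it was -0.47.

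None of the 10 genes passed an adjusted p of 0.05 in edgeR, against 1.64% of all tested genes (308 genes). Of all tested genes, 1.34% were lower and 0.298% higher in Myh10L458R/L458R lungs (252 and 56 genes, or 234 and 112 when lungs were scaled by library totals). At an unadjusted p under 0.05, *Eln*, *Fbn1* and *Fbln5* were lower, against 9.02% of all tested genes, and *Fbn2* was higher, against 7.52%. With the Wald test of DESeq2, *Eln* passed (adjusted p = 1.42e-10) and the other 9 did not. Both Myh10L458R/L458R lungs lay below both wild-type lungs for 6 of the 10 genes, against 24.3% of all tested genes, and above both for 2, against 23.9%. *Emilin1* is counted among the 6 although wild-type lung 1 and Myh10L458R/L458R lung 2 were almost equal, at 215 CPM. The log2 fold change was below 0 for 8 of the 10 genes, against 49.5% of all tested genes. The median log2 fold change was -0.09 over the 10 genes and -0.08 over the 9 without *Eln*, against 0.00 over all tested genes.

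**Figure D1:**
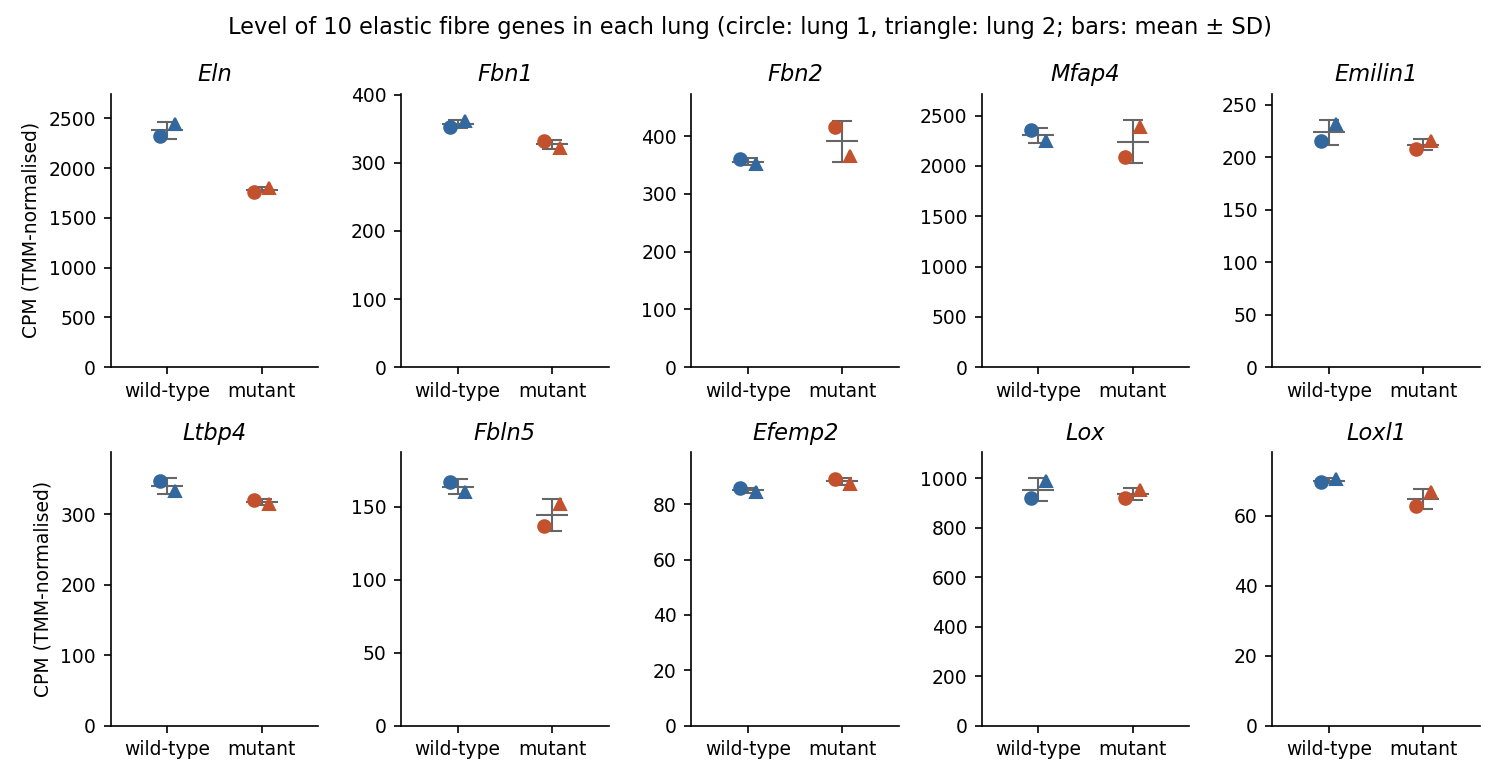
Level of each gene in each lung, in CPM on axes that start at 0, with wild-type lungs in blue and Myh10L458R/L458R (mutant) lungs in orange. Circles are lungs numbered 1, triangles lungs numbered 2, and bars the mean ± SD (n = 2). The gap between genotypes is widest for *Eln* (2321 and 2439 against 1763 and 1798 CPM). The points of *Mfap4* and *Lox* overlap, and those of *Emilin1* almost meet.

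The fold of *Eln* varied little between fits, whereas its estimated error and its call varied. Over 12 other fits with all 4 lungs, its log2 fold change lay between -0.42 and -0.40, and its adjusted p between 1.42e-10 and 0.112. Leaving out the single gene *Xist*, high in a lung of each genotype and chosen after the data were seen, lowered the standard error of *Eln* from 0.10 to 0.07 and gave an adjusted p of 0.0146. Leaving out all genes on chromosomes X, Y and MT gave 0.00288. With each lung left out in turn, which leaves a lone lung that is assumed to vary like the other group, the log2 fold change lay between -0.45 and -0.38. *Eln* passed without wild-type lung 1 (adjusted p = 0.0318) or Myh10L458R/L458R lung 2 (1.67e-05) and not without wild-type lung 2 (0.704) or Myh10L458R/L458R lung 1 (0.457). In all, *Eln* passed an adjusted p of 0.05 in 10 of the 16 fits other than the reported one.

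**Figure D2:**
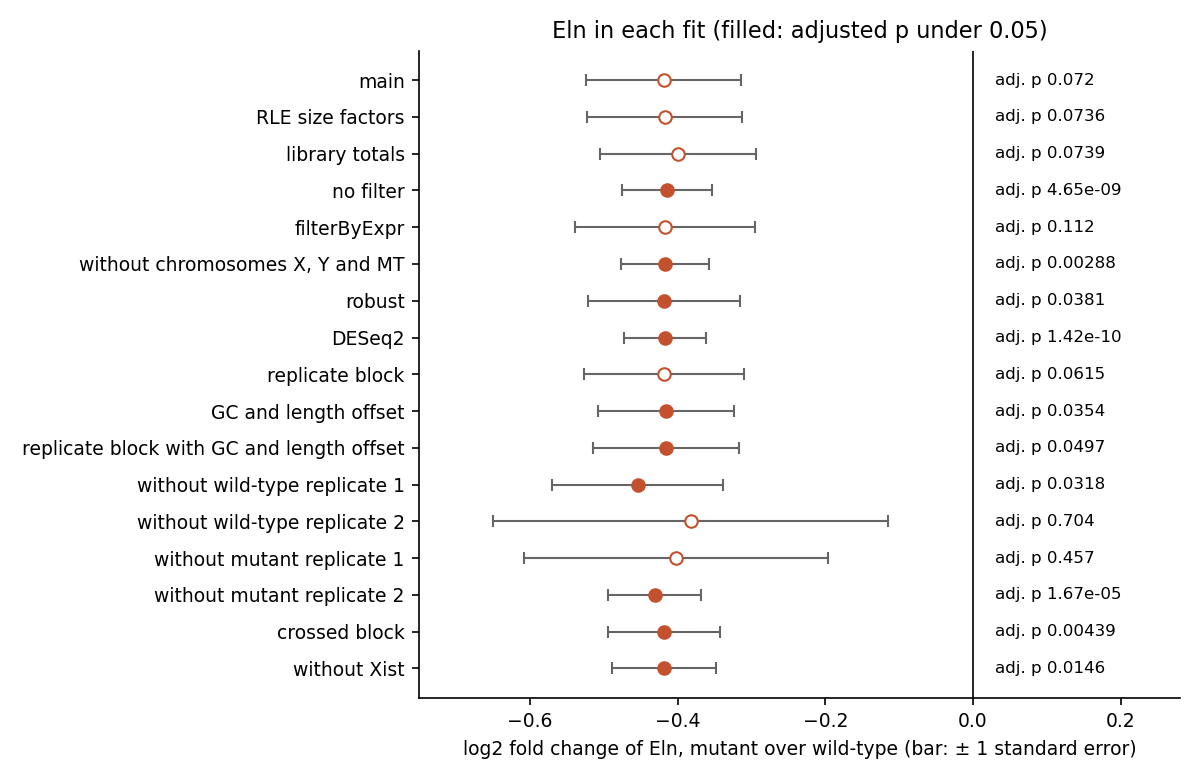
Log2 fold change of *Eln* in the reported fit (main) and each alternative, with bars of ± 1 standard error and the adjusted p at the right, filled where it is under 0.05. Every estimate lies between -0.45 and -0.38, while the bars differ in length and the adjusted p ranges from 1.42e-10 to 0.704.

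The microfibril genes showed smaller differences, in both directions. Fibrillin-1 (*Fbn1*, ENSMUSG00000027204, chromosome 2, 125300594 to 125507993, minus strand) builds the microfibrils of most tissues through life. It was counted at 353 and 361 CPM in wild-type and 332 and 322 CPM in Myh10L458R/L458R lungs. The ranges did not overlap, but the log2 fold change of -0.13 (95% confidence interval -0.23 to -0.02) missed the threshold (adjusted p = 0.222). Of its exon bases, 20.1% overlap *Gm9913* on the opposite strand, which had 32 reads in all. Fibrillin-2 (*Fbn2*, ENSMUSG00000024598, chromosome 18, minus strand) is the fibrillin most used in embryonic tissue. It was at 361 and 351 CPM in wild-type and 416.5 and 366 CPM in Myh10L458R/L458R lungs. Both Myh10L458R/L458R lungs were above both wild-type lungs, with a log2 fold change of 0.14 (interval 0.00 to 0.27, adjusted p = 0.3), and lung 1 was well above lung 2. The log2 fold change of *Fbn2* was 0.23 without Myh10L458R/L458R lung 2 but 0.04 without Myh10L458R/L458R lung 1. It was 0.16 without wild-type lung 1 and 0.12 without wild-type lung 2.

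The fibrillins thus stood at about equal counts in wild-type lungs, with 1.02 and 0.973 *Fbn2* reads per *Fbn1* read. In Myh10L458R/L458R lungs the ratio was higher, at 1.25 and 1.14. The mean ratio differed 1.20-fold, and its exact two-sided permutation p of 0.333 is the smallest that 2 lungs against 2 can give.

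*Mfap4* (ENSMUSG00000042436, chromosome 11, 61485431 to 61488900, plus strand) encodes microfibril-associated protein 4, which binds fibrillin and tropoelastin. It was at 2357 and 2249 CPM in wild-type and 2093 and 2390 CPM in Myh10L458R/L458R lungs. Of its exon bases, 89 overlap *Mapk7* on the opposite strand, which had 8392 reads in all, against 231924 for *Mfap4*. The genotypes overlapped, and the Myh10L458R/L458R lungs differed from each other by 0.19 on the log2 scale, more than the genotypes did (log2 fold change -0.04, interval -0.29 to 0.21, adjusted p = 0.905). *Emilin1* (ENSMUSG00000029163, chromosome 5, 30913402 to 30921277, plus strand) encodes a glycoprotein at the interface of elastin and microfibrils. It was at 215 and 232 CPM in wild-type and 208 and 215 CPM in Myh10L458R/L458R lungs, so that wild-type lung 1 and Myh10L458R/L458R lung 2 were almost equal. Its log2 fold change was -0.08 (interval -0.19 to 0.03, adjusted p = 0.464).

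Among the assembly genes, fibulin-5 (*Fbln5*, ENSMUSG00000021186, chromosome 12, 101746565 to 101819055, minus strand) binds tropoelastin and places it on microfibrils. It was counted at 167 and 160 CPM in wild-type and 136.5 and 152 CPM in Myh10L458R/L458R lungs. Both Myh10L458R/L458R lungs were below the wild-type lungs, with the second difference in size after *Eln*, a log2 fold change of -0.18 (interval -0.31 to -0.05) that did not pass (adjusted p = 0.147). It passed when every gene with a count was tested (adjusted p = 0.0413), a fit in which the error of each gene was set by all genes together. The log2 fold change of *Fbln5* was -0.26 without Myh10L458R/L458R lung 2 but -0.10 without Myh10L458R/L458R lung 1. It was -0.15 without wild-type lung 1 and -0.21 without wild-type lung 2. The related fibulin-4 (*Efemp2*, ENSMUSG00000024909, chromosome 19, 5473954 to 5482517, plus strand) links lysyl oxidase to tropoelastin. It was at 85.7 and 84.4 CPM in wild-type and 89.2 and 87.4 CPM in Myh10L458R/L458R lungs, slightly higher in both (log2 fold change 0.05, interval -0.07 to 0.18, adjusted p = 0.697). Its exons share 173 bases with *Mus81* on the opposite strand, which had 4088 reads in all, against 8864 for *Efemp2*.

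Within lungs, there were 1.95 and 1.90 *Fbln5* reads per *Efemp2* read in wild-type lungs and 1.53 and 1.74 in Myh10L458R/L458R lungs, a ratio of 0.848 between genotypes (exact two-sided permutation p = 0.333). *Ltbp4* (ENSMUSG00000040488, chromosome 7, 27305136 to 27337692, minus strand) encodes the latent TGF-beta binding protein that works with fibulin-5 in laying elastin on microfibrils. It was at 348 and 332 CPM in wild-type and 320 and 314 CPM in Myh10L458R/L458R lungs. The ranges did not overlap, and the log2 fold change of -0.10 (interval -0.21 to 0.01) did not pass (adjusted p = 0.325).

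The cross-linking enzymes showed no difference that passed. Lysyl oxidase (*Lox*, ENSMUSG00000024529, chromosome 18, minus strand) was at 922 and 988 CPM in wild-type and 919 and 953 CPM in Myh10L458R/L458R lungs. These ranges overlapped, and with a log2 fold change of -0.03 the interval ran from -0.21 to 0.15 (adjusted p = 0.904). *Loxl1* (ENSMUSG00000032334, chromosome 9, 58287738 to 58313186, minus strand), whose enzyme is drawn to elastin by fibulin-5, was at 69.6 and 70.4 CPM in wild-type and 62.6 and 66.7 CPM in Myh10L458R/L458R lungs. The log2 fold change was -0.11 (interval -0.26 to 0.04, adjusted p = 0.441). Per *Loxl1* read there were between 13.2 and 14.0 *Lox* reads in wild-type and between 14.3 and 14.7 in Myh10L458R/L458R lungs.

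**Figure D3:**
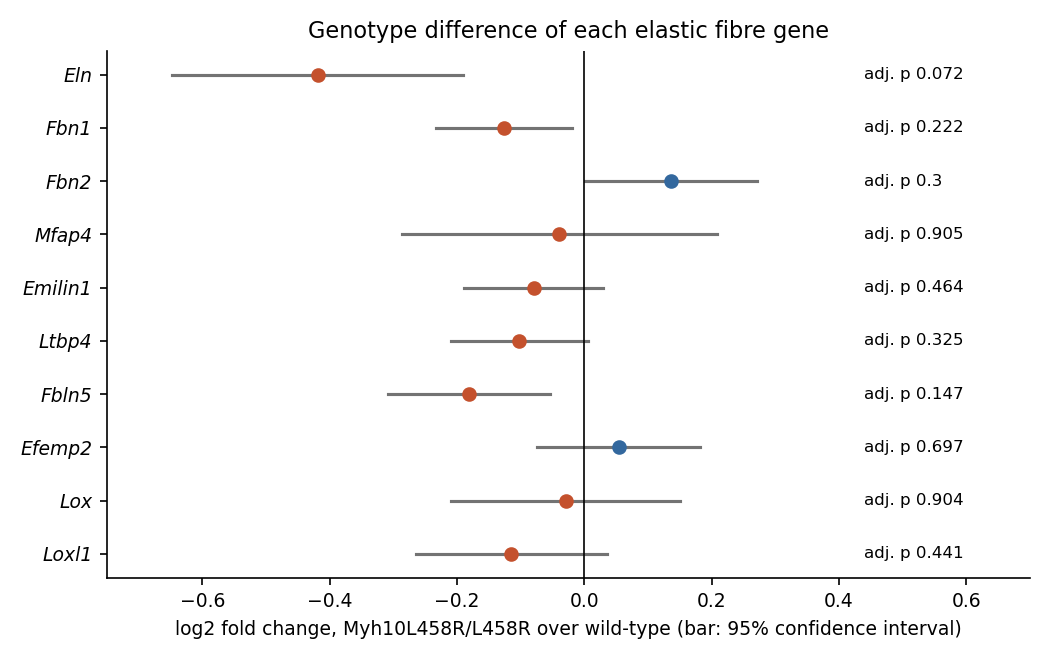
Log2 fold change of each gene (Myh10L458R/L458R over wild-type, negative values in orange, positive in blue) with its 95% confidence interval and adjusted p from edgeR. *Eln*, at -0.42, lies below the lower end of every other gene's interval, the lowest of which is -0.31 for *Fbln5*. The interval of *Eln* itself, from -0.65 to -0.19, overlaps those of *Fbln5*, *Mfap4*, *Loxl1*, *Fbn1*, *Ltbp4* and *Lox*.

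Levels were compared between genes as CPM per kilobase of the longest coding transcript. In wild-type lungs the order was *Mfap4* (2452 ± 81.3, SD, n = 2), *Eln* (618 ± 21.7), *Lox* (201 ± 9.76), *Fbln5* (69.0 ± 2.08), *Ltbp4* (63.1), *Emilin1* (58.1), *Efemp2* (47.75), *Fbn2* (32.2), *Fbn1* (29.8) and *Loxl1* (21.2). No neighbours in this order overlapped between the 2 wild-type lungs. Myh10L458R/L458R lungs had the same order, with *Fbln5* (60.8 ± 4.64) and *Ltbp4* (58.8 ± 0.728) overlapping and *Eln* at 462 ± 6.43. With the union of all annotated exons as the length, which for *Eln* is 8098 bases against 3853 for the transcript, *Mfap4*, *Eln* and *Lox* again led and *Loxl1* was again last, but *Fbln5* stood eighth in wild-type lungs, and *Fbn1* came before *Fbn2* there but after it in Myh10L458R/L458R lungs.

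The ratio of *Eln* to each other gene within a lung does not depend on the scaling between lungs. There were 0.476 and 0.505 *Eln* reads per read of the other 9 genes summed in wild-type lungs and 0.385 and 0.369 in Myh10L458R/L458R lungs, a ratio of 0.769 between genotypes (log2 difference -0.38). The exact two-sided permutation p was 0.333, the smallest possible here. Per read of *Lox* there were 2.52 and 2.47 *Eln* reads in wild-type and 1.92 and 1.89 in Myh10L458R/L458R lungs. Per read of *Fbn1* these numbers were 6.58 and 6.76 against 5.31 and 5.58. Against each of the 9 genes both Myh10L458R/L458R lungs lay below both wild-type lungs, by a factor between 0.682 for *Fbn2* and 0.850 for *Fbln5*; these 9 ratios share the *Eln* count and are not independent. *Eln* took 32.2% and 33.6% of the reads of the 10 genes in wild-type lungs and 27.8% and 27.0% in Myh10L458R/L458R lungs.

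**Figure D4:**
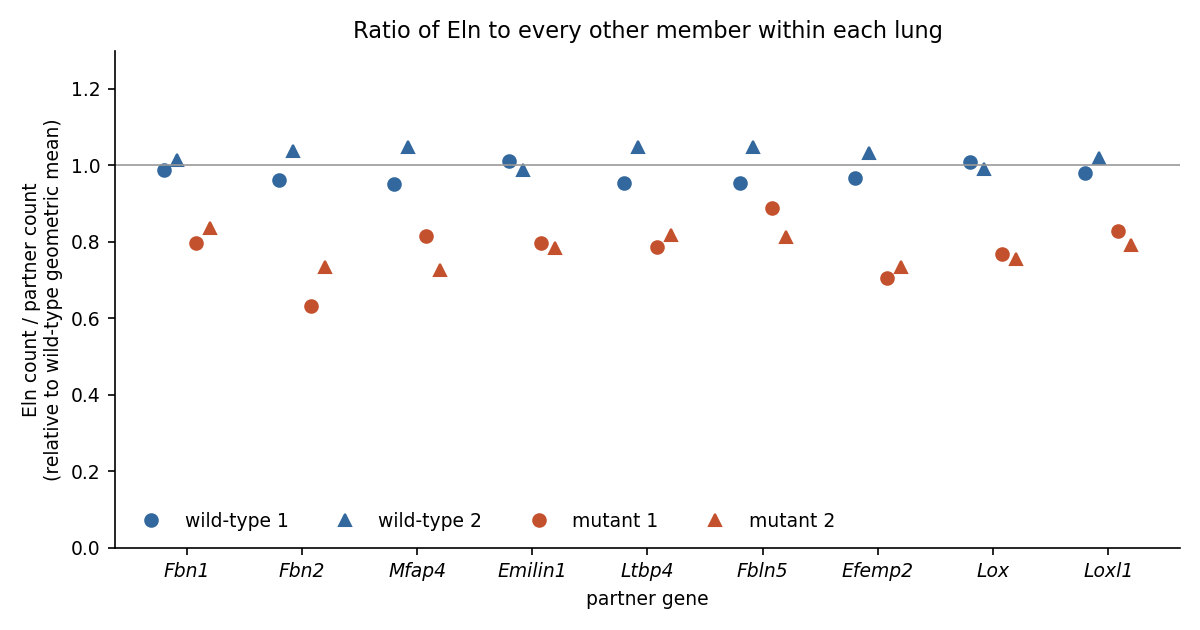
Ratio of the *Eln* count to the count of each other gene in each lung, divided by the geometric mean of the 2 wild-type ratios, on an axis from 0. Wild-type lungs are blue and Myh10L458R/L458R (mutant) lungs orange. The mutant points lie below the wild-type points for all 9 partner genes, closest for *Fbln5* (0.850-fold) and farthest for *Fbn2* (0.682-fold).

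A further 63 genes of elastic fibres and their turnover were listed, of which 59 were tested and 4 (*Mmp7*, *Mmp12*, *Elane* and *Serpina1a*) had too few counts. In edgeR 2 of the 59 fell (3.39%) and 1 rose (1.69%), against 1.34% and 0.298% of all tested genes, and their median log2 fold change was -0.04. Among 16 other microfibril genes, *Adamtsl2*, whose product binds fibrillin-1 and latent TGF-beta binding proteins, fell from 129 and 138 CPM to 107 CPM in both Myh10L458R/L458R lungs (log2 fold change -0.32, adjusted p = 0.0178). *Adamtsl4*, which also binds fibrillin-1, was at 14.3 and 14.8 CPM in wild-type and 11.5 and 11.1 CPM in Myh10L458R/L458R lungs (adjusted p = 0.0799). The other 14 genes of this list did not pass either, and the median of the list was -0.05.

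Of 6 proteoglycan genes none passed, and the median log2 fold change was 0.15. *Vcan*, for versican, which binds fibrillin microfibrils, had a log2 fold change of 0.17 (adjusted p = 0.171), and *Lum*, for lumican, one of 0.26 (adjusted p = 0.204). None of 7 genes for other lysyl oxidases, their activation and tropoelastin folding passed. *Bmp1*, whose protease activates lysyl oxidase, was at 283.5 and 281 CPM in wild-type and 310.0 and 302 CPM in Myh10L458R/L458R lungs (log2 fold change 0.12, adjusted p = 0.233), and *Loxl3* had a log2 fold change of 0.12 (adjusted p = 0.483).

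All 6 tested genes of elastin-degrading and matrix proteases had log2 fold changes below 0, with a median of -0.24, and none passed. The lowest p was that of *Mmp14*, a membrane-bound activator of MMP2, at 291 and 298 CPM in wild-type and 255.5 and 261 CPM in Myh10L458R/L458R lungs (log2 fold change -0.19, adjusted p = 0.0662). Cathepsin S (*Ctss*) followed, with a log2 fold change of -0.29 (adjusted p = 0.187). Of 6 tested protease inhibitor genes *Timp3* fell, from 389 and 345 CPM to 267 and 287 CPM (log2 fold change -0.41, adjusted p = 0.0108; its locus overlaps *Syn3*), and *Cst3*, for cystatin C, had a log2 fold change of -0.14 (adjusted p = 0.265). Of 7 receptor genes *Itgb8*, for a subunit of a TGF-beta-activating integrin, rose from 8.16 and 7.51 CPM to 13.0 and 10.8 CPM (log2 fold change 0.59, adjusted p = 0.0362), and *Itgb3* had a log2 fold change of -0.36 (adjusted p = 0.115). None of 11 growth factor and regulator genes passed. *Foxf1*, a mesenchymal transcription factor, had a log2 fold change of -0.18 (adjusted p = 0.107) and *Pdgfa*, the epithelial signal for alveolar myofibroblasts, one of -0.20 (adjusted p = 0.194).

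**Figure D5:**
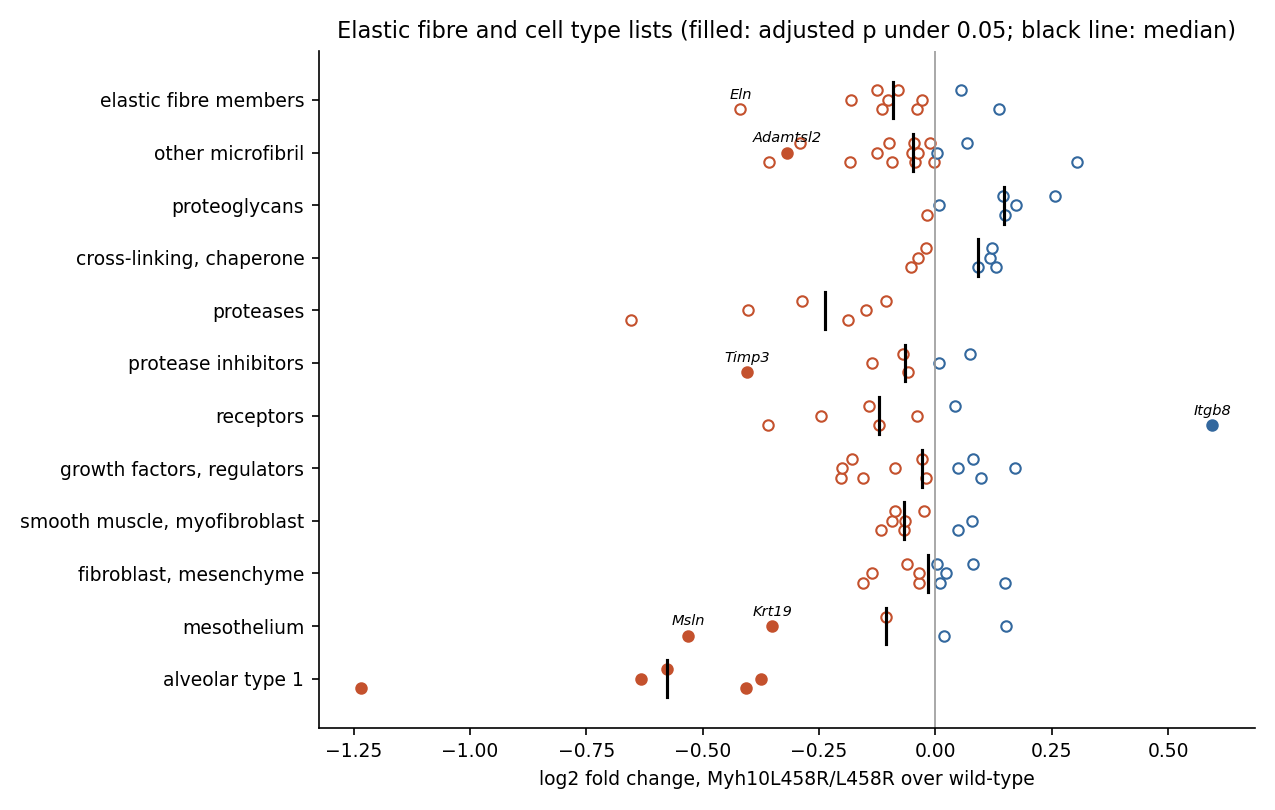
Log2 fold change (Myh10L458R/L458R over wild-type) of the 10 genes, of the tested genes of 7 further elastic fibre lists, and of 4 cell type lists. Each point is a gene, filled where the adjusted p from edgeR is under 0.05, and black lines are medians. *Eln*, at -0.42, lies below every smooth muscle and mesenchymal gene shown, the lowest of which is at -0.16. The mesothelial genes lie between -0.53 and 0.15, and the alveolar type 1 genes between -1.23 and -0.37.

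Markers of the cells that make elastin were examined beside the *Eln* values, and their part in the difference was not tested. None of 8 smooth muscle and myofibroblast markers passed, with a median log2 fold change of -0.07 and a lowest value of -0.12. *Acta2* (mean 347 CPM in wild-type and 320 CPM in Myh10L458R/L458R lungs), *Myh11* (181 and 169.9) and *Tagln* (104 and 99.4) were the most counted, and the summed level of the list was 727 to 781 CPM in wild-type and 707 to 713 CPM in Myh10L458R/L458R lungs. None of 10 fibroblast and mesenchyme markers passed, with a median of -0.02 and summed levels of 6624 to 6651 and 6386 to 6512 CPM. *Col3a1*, *Col1a2* and *Fn1* were the most counted of these, with log2 fold changes of 0.01, -0.06 and -0.03. Of 5 mesothelial markers *Msln* fell from 207 and 224 CPM to 129 and 169 CPM (log2 fold change -0.53, adjusted p = 0.0196) and *Krt19*, which epithelium also makes, fell from 237.5 and 238 CPM to 173 and 201 CPM (-0.35, adjusted p = 0.0196). *Upk3b*, the third of these by count, had a log2 fold change of -0.11, and the defining mesothelial regulator *Wt1* one of 0.15 (adjusted p = 0.615).

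In other cell type lists, all 5 alveolar type 1 markers fell (median -0.58), as did 2 of 6 epithelial markers (*Cdh1* and *Krt8*). So did 4 of 5 tested cardiac muscle (*Myh6*, *Myl7*, *Tnnt2* and *Myl4*), 1 of 4 leukocyte (*Lyz2*) and 1 of 4 erythroid markers (*Alas2*). Of all tested genes, 1.34% were lower. The epithelial markers that did not pass were *Nkx2-1* (log2 fold change 0.02), *Epcam* (-0.04), *Krt18* (-0.24) and *Sftpc* (-0.41). The leukocyte markers that did not pass had log2 fold changes between -0.27 and 0.08. *Lyz2* averaged 180 CPM in wild-type lungs, against 8.78 CPM for *Cd68* and 35.9 CPM for *Csf1r*. Whether the *Lyz2* reads came from leukocytes was not tested. None passed among 6 endothelial, 5 arterial endothelial, 6 tested cartilage and 4 proliferation markers, with medians of -0.13, -0.12, 0.06 and 0.19. At an unadjusted p under 0.05 in edgeR, all 4 proliferation markers and 1 cartilage marker were higher, against 7.52% of all tested genes. By the same measure, 4 endothelial markers and 1 arterial endothelial marker were lower, against 9.02%. Both Myh10L458R/L458R lungs lay above both wild-type lungs for all 4 proliferation markers, against 23.9% of all tested genes. The summed level of the cartilage list was 38.8 to 41.5 CPM in wild-type and 41.9 to 45.2 CPM in Myh10L458R/L458R lungs. Most of it was *Sox9* (29.6 to 34.7 CPM), which distal lung epithelium also makes, followed by *Col9a1* (6.59 to 7.33 CPM), while *Col2a1*, the main collagen of cartilage, was at no more than 1.55 CPM in any lung.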

How the data were processed

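The 10 genes and all gene lists were chosen with earlier results of these data known. RNA of the left lung lobe of each embryo was sequenced as single-end reads from stranded mRNA libraries. The deposited table holds unnormalized read counts for each Ensembl gene. Reaper (trimming), STAR 2.4.0a (alignment to GRCm38) and featureCounts 1.5.1 (exonic reads) were run by the authors, who discarded multi-mapped reads and those shared between genes. Whether strand was used in counting is not given in the sources used here, so reads in bases shared with a gene on the opposite strand may be missing.

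Genes averaging 5 or more counts were tested with edgeR 4.0.16 in R 4.3.3 (TMM, glmQLFit, glmQLFTest), without covariates. Standard errors are the log2 fold change divided by the square root of F, and intervals cover 95%. Ratios within lungs were compared by exact permutation. Replicates are separate embryos and differed by more than counting error (chi-square per degree of freedom 7.30 and 12.9), so the 2 lungs per genotype limit the precision. Same-numbered lungs did not deviate together (r = -0.297 across all tested genes and 0.0114 without chromosomes X, Y and MT; genes are not independent), so the numbers were not taken as pairs. Transcripts, lengths and positions come from GENCODE M21 on GRCm38, and *Cnmd* was matched by identifier. DESeq2 1.42.0 was an alternative.

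Named genes are the 10 members, in each further elastic fibre list those past an adjusted p of 0.05 and the 2 with the lowest p, in each cell type list those past it (for alveolar type 1 as a count), and for smooth muscle, mesenchyme and mesothelium also the 3 most counted. *Wt1*, *Sox9*, *Col9a1*, *Col2a1*, *Nkx2-1*, *Epcam*, *Krt18*, *Sftpc*, *Cd68*, *Csf1r* and the untested genes were named after their values had been seen. *Pdgfra* and *Dcn* are in an elastic fibre and a cell type list. *Eln* was also compared with its 5 closest genes by centred log2 CPM.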

Additional observations from a re-analysis of the deposited data

How the results depend on the processing

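The 2 lungs per genotype, rather than read depth, limit the precision, since the spread between lungs exceeded counting error. The direction of *Eln* held in all 17 alternatives. Its log2 fold change passed at -0.415 with no filter on counts, -0.42 when chromosomes X, Y and MT were left out, -0.42 with robust dispersion, -0.42 with DESeq2, -0.42 with the GC and length offset, alone and with the replicate block, and -0.42 with the threshold of 0.1; of the fits added after seeing the data, it passed at -0.42 with the crossed block and -0.42 without *Xist*. With the replicate block alone, which joined lungs of unlike *Xist* level, it did not pass (-0.42, adjusted p = 0.0615). The crossed block joined wild-type lung 1 with Myh10L458R/L458R lung 2, both high in *Xist*, and the lungs low in *Xist* with each other. With this block *Eln* had an adjusted p of 0.00439 in edgeR. With no filter, the error of each gene was set by all genes together. Leaving out each lung, the log2 fold change of *Eln* lay between -0.45 and -0.38.

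The number of the 10 genes called, 0 in the reported fit, was 2 with no filter, 1 in each of the other fits in which *Eln* passed with all 4 lungs, and 0 to 3 with a lung left out. Of the further 59 genes, 3 were called, against 8 with no filter, 6 with the replicate block, 5 with the block and the offset, 5 at the threshold of 0.1, and 1 to 11 with a lung left out (11 without Myh10L458R/L458R lung 2). Over all genes 308 were called, against 1162 with no filter, 474 with robust dispersion, 710 with the replicate block, 487 with the offset, 594 with both, 696 at the threshold of 0.1, and 191 (without wild-type lung 2) to 1826 (without Myh10L458R/L458R lung 2) with a lung left out. The fit with no filter tested 28549 genes, against 18763 in the reported fit. The crossed block gave 415 calls over all genes and 1 of the 10. For the other 9 genes, 150 of 153 comparisons with alternatives kept their call, 3 gained one (*Fbln5* in 2 and *Fbn2* in 1), and in 2 of the 150 (*Mfap4* and *Lox*, each with a lung left out) the sign differed without a call. The within-lung ratio of *Eln* to the other 9 genes differed by -0.38 per kilobase and -0.37 without the fibrillins. The causes of these changes were not tested.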

Other observations

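*Eln* ranked eleventh of the tested genes by mean count. Among 297 genes averaging 10000 or more counts, 5 had a log2 fold change at or below that of *Eln*, counting *Eln* itself. The other 4 were *Ager* (-0.58), *Slc34a2* (-0.56), *Clic5* (-0.50) and *Sftpb* (-0.48), genes known from alveolar epithelium, each of which passed an adjusted p of 0.05 in edgeR. Among 10978 other genes averaging 250 or more counts, those whose 4 centred log2 CPM values lay closest to *Eln* were *Gstt3* (Euclidean distance 0.035), *Xdh* (0.0361), *Ddit4* (0.038), *Arl4d* (0.0477) and *Pgc* (0.049). Their log2 fold changes lay between -0.46 for *Arl4d* and -0.37 for *Pgc*, and each passed (adjusted p between 0.0199 for *Ddit4* and 0.0475 for *Pgc*). The genes were picked on the same 4 values, so fold changes near that of *Eln* follow from the choice and are no separate result. *Gstt3* was at 17.0 and 17.4 CPM in wild-type and 12.9 CPM in both Myh10L458R/L458R lungs. Likeness over 4 lungs of 2 genotypes says nothing of shared control.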
